A study of Mus musculus with 2 samples.

Results

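The genes described here carry out or time the copying of DNA in S phase. They were 55 genes chosen by symbol: the origin recognition complex and licensing factors, the replicative helicase and its activators, the polymerases with their clamp and clamp loader, and genes of nucleotide supply, chromatin assembly and G1/S control. Of the 55, 54 had at least 1 probe set (a group of short probes against a transcript) tied to that gene alone, out of 18193 such genes on the array. Chaf1a, the large subunit of chromatin assembly factor 1, had none, so its RNA was not analysed here. The 54 genes had 117 of the 45037 probe sets.

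Rib chondrocytes of 5-day-old mice were compared on a whole-genome Affymetrix expression array. One sample was wild type and the other carried the V156D knock-in of Matn1, the gene of the cartilage matrix protein matrilin-1, 2 samples in all. The cells had been released from dissected ribs with collagenase, and each RNA came from cells of pooled animals, 5 littermates per the design text. The labels do not state the strain, the sex, whether each pool held 5 animals, or whether the knock-in allele was homozygous. With 1 array per genotype there was no replicate error, so no SD over samples, test or p-value is given, and each value compares these arrays only. Precision is limited by having so few arrays.

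Before a cell divides, the origin recognition complex together with Cdc6 and Cdt1 loads the Mcm2 to Mcm7 helicase onto DNA, and kinases then activate it with Cdc45 and the GINS complex. Primase and DNA polymerases copy the strands while the sliding clamp Pcna, placed by the Rfc complex, holds the polymerase on its template. Many of these genes are transcribed in late G1 and S phase under E2F transcription factors, whereas mitosis genes peak later in the cycle through promoter elements known as CHR. In growing cartilage the dividing cells are mainly the flattened chondrocytes of the proliferative zone, and chondrocytes stop dividing when they become hypertrophic.

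The cells carried the markers of their label. All 10 chondrocyte markers, among them the collagen gene Col2a1 with intensities of 27997 in wild type and 29057 in V156D, lay at or above the signal floor, which was the 50th percentile of mean signal over all probe sets, an intensity of 54.6. Their summed intensity was 121999 in wild type and 123328 in V156D. All 10 fibroblast and perichondrium markers had higher signals in V156D, with a sum of 46708 in wild type and 70909 in V156D, as did 6 of 7 endothelial markers at or above the floor, with a sum over all 10 of 726 and 1135. Of the leukocyte markers 4 of 10 and of the erythroid and marrow markers 3 of 7 measured reached the floor, and the pan-leukocyte marker Ptprc had 11.1 in wild type and 10.8 in V156D. Of 5 muscle markers at or above the floor 4 had lower signals in V156D, and the sum over all 8 was 2611 in wild type and 2017 in V156D. All 5 measured osteoblast markers had higher signals in V156D, 2 of them at or above the floor. Their sum was 207 in wild type and 254 in V156D. Of all 11329 genes at or above the floor, 44.8% had higher signals in V156D. The sex-linked transcripts also differed, Xist at 7755 and 5006 and Eif2s3y at 230 and 490. The part of these differences in the values below was not tested. In RNA of mixed cells, a different share of dividing cells and a different amount of transcript per cell cannot be told apart.

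The replication genes had nearly equal signals on both arrays. Each gene was represented first by its brightest probe set, and 50 of the 54 lay at or above the floor, on both arrays in each case. None of the 50 differed 1.5-fold, against 1.70% of all 11329 genes at or above the floor at least 1.5-fold higher in V156D and 2.02% at least 1.5-fold lower. The log2 ratios of V156D over wild type ran from -0.53 to 0.40, with a median of 0.04 and an SD over genes of 0.20. Over all genes the median was -0.02 and the SD 0.27. All 50 fell between -0.55 and 0.49, the central 95% of all genes. Of the 50, 30 had a ratio above 0, or 60%, against 44.8% of all genes. Within 0.1 of 0 lay 22 of the 50, or 44%, against 40.3% of all genes, while the median size of the ratio regardless of sign was 0.15 for the 50 and 0.13 for all genes.

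Averaging the probe sets of each gene gave the same picture. None of the 50 reached 1.5-fold, against 1.35% of all genes higher and 1.30% lower. The mean ratios ran from -0.36 (Mcm4) to 0.39 (Tk1), with a median of 0.05 beside -0.01 over all genes. Of the 50, 31 had a mean ratio above 0, against 46.4% of all genes. The sign of the brightest probe set and of the mean differed for Mcm3, Mcm6, Mcm7, Cdt1, Rfc1, Prim2 and Dut, whose ratios all lay between -0.13 and 0.09 in both measures.

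A threshold of 1.2-fold, set after the values were seen, separated 9 genes by brightest probe set. Uhrf1, Tk1, Lig1, E2f1 and Fen1 were higher in V156D, 10% of the 50, where 8.15% of all genes reached that fold. Mcm4, Rfc4, Orc4 and Orc6 were lower, 8% of the 50, where 13.1% of all genes did. By the mean over probe sets Tk1, Lig1 and E2f1 were higher, 6% against 6.47% of all genes, and Mcm4 and Orc6 were lower, 4% against 9.67%. The shares of higher genes were near those over all genes.

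**Figure D1:**
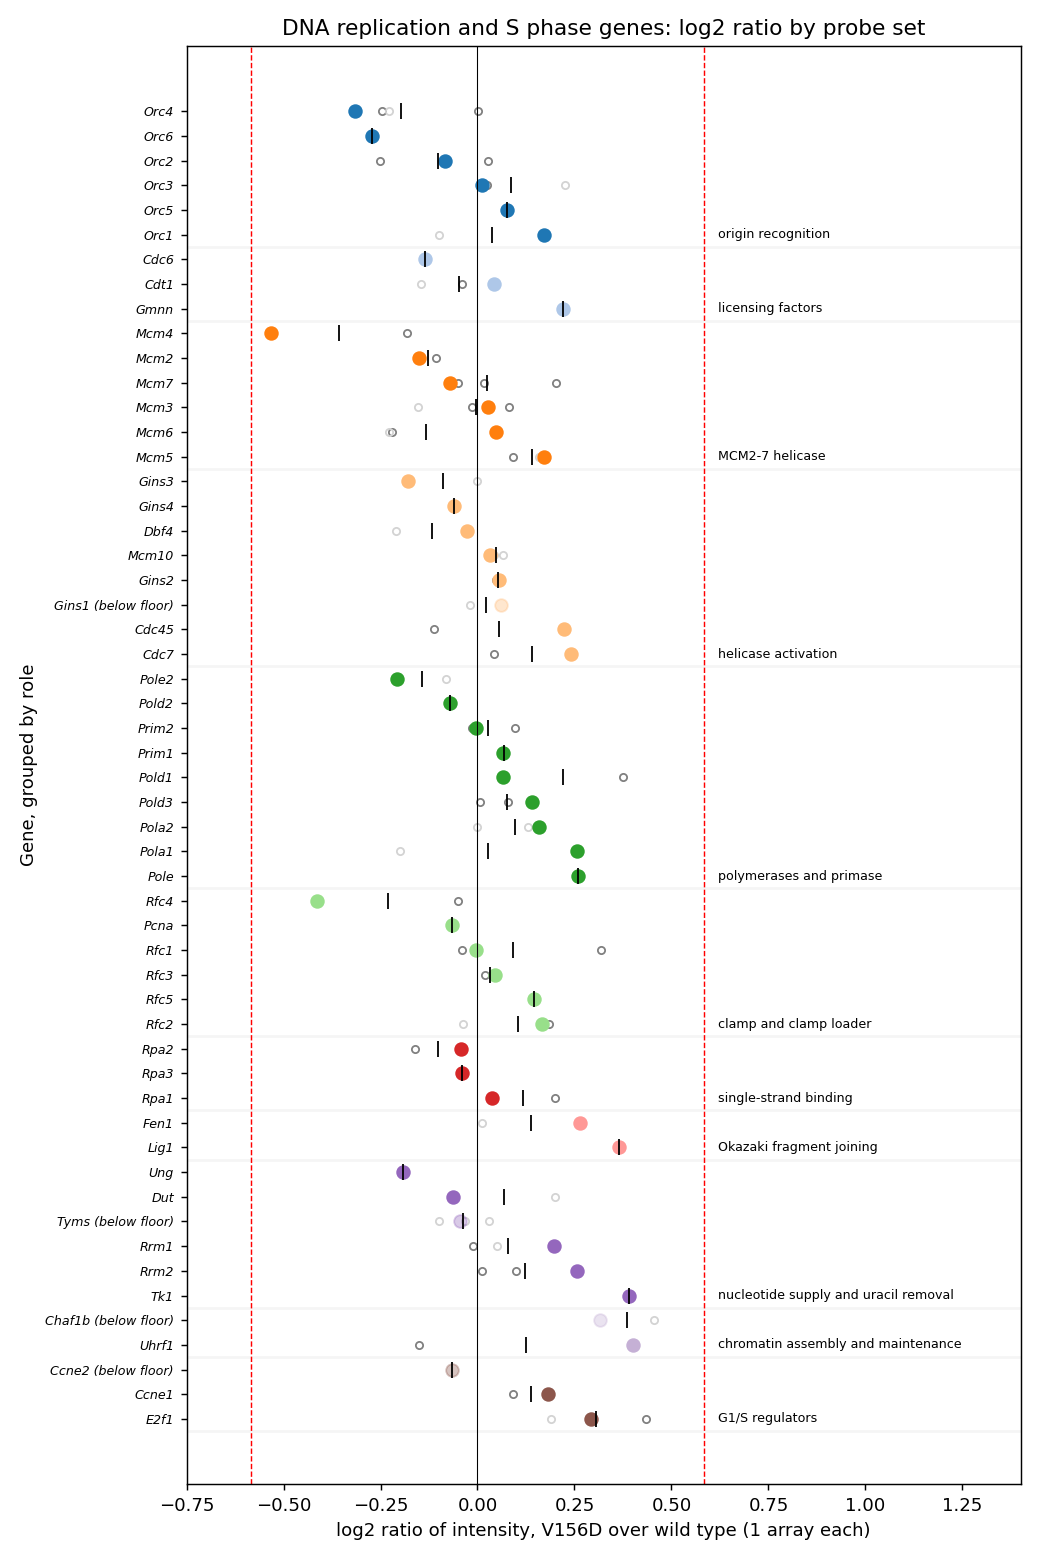
Log2 ratio of intensity (V156D over wild type, 1 array each, horizontal axis) for the 54 measured genes (vertical axis), grouped by role. Filled points are the brightest probe set of a gene (pale where it lies below the signal floor), open points its other probe sets (light grey below the floor), black ticks the mean over its probe sets, and dashed lines 1.5-fold. No filled point reaches a dashed line, and Mcm4 at -0.53 comes closest.

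**Figure D2:**
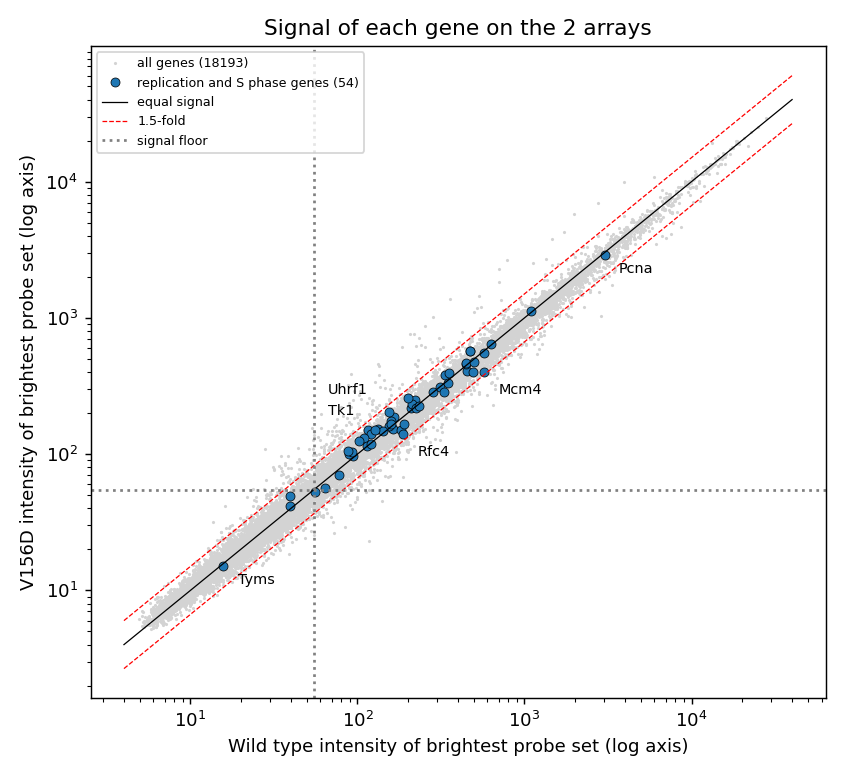
Intensity of the brightest probe set of each gene in wild type (horizontal, log axis) and V156D (vertical, log axis). Blue points are the 54 replication and S phase genes, grey points all 18193 genes, dashed lines 1.5-fold and dotted lines the signal floor of 54.6. The blue points follow the line of equal signal from Tyms, at 15.7 and 15.2, to Pcna, at 3016 and 2883.

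The genes that bind and mark origins divided evenly around 0. Orc1 to Orc6 encode the subunits of the origin recognition complex, and 3 had ratios above 0 and 3 below, with a median of -0.04. Orc4 had a signal of 495 in wild type and 398 in V156D, 1.24-fold lower in V156D. Its other probe sets at or above the floor had log2 ratios of -0.25 and 0.00, and the mean over its 4 probe sets was -0.20 ± 0.14 (SD over probe sets, not over samples). The single probe set of Orc6 had 182 in wild type and 151 in V156D, a log2 ratio of -0.27. Orc1, the subunit whose level varies most with the cell cycle, had 88.5 in wild type and 99.7 in V156D, a log2 ratio of 0.17, which was 0.04 as the mean of both its probe sets. Orc2, Orc3 and Orc5 had ratios of -0.08, 0.01 and 0.08.

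The licensing factors gave small ratios of both signs. Cdt1, which loads the helicase with Cdc6, had 1095 in wild type and 1127 in V156D by its brightest probe set, a log2 ratio of 0.04, and the mean over its 3 probe sets was -0.05. Cdc6 had 77.7 in wild type and 70.8 in V156D, a log2 ratio of -0.14. Gmnn encodes geminin, the inhibitor that blocks Cdt1 after S phase has begun. Its intensity was 132 in wild type and 154 in V156D, a log2 ratio of 0.22, the highest of these 3 genes.

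The helicase subunits Mcm2 to Mcm7 form 1 ring in equal numbers, yet their ratios spread from the lowest of all 50 genes to 0.17. Mcm4 had 575 in wild type and 398 in V156D, 1.45-fold lower, by a probe set whose name marks possible matches to other transcripts (ending in _x_at). The other Mcm4 probe set had 438 and 386, a log2 ratio of -0.18, so both were lower in V156D but by unequal amounts. Mcm2 had 453 in wild type and 409 in V156D, and its probe sets gave -0.15 and -0.11. Mcm5 had 221 in wild type and 249 in V156D, and the mean of its 3 probe sets was 0.14 ± 0.04 (SD over probe sets). The list median was -0.02 by brightest probe set and -0.07 by the mean, with 3 of 6 and 2 of 6 genes above 0. Under the 9 alternatives of scaling, offset, floor and probe set choice the median by brightest probe set ran from -0.04 to 0.03, and that by the mean from -0.09 to -0.01.

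The other helicase subunits had ratios of both signs. Mcm6 had 444 in wild type and 459 in V156D by its brightest probe set, a log2 ratio of 0.05, but 246 and 211, a log2 ratio of -0.22, by the next. The 4 probe sets of Mcm7 gave -0.07, -0.05, 0.02 and 0.20. The 5 probe sets of Mcm3 ran from -0.15 to 0.08, with intensities of 216 in wild type and 220 in V156D for the brightest.

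Helicase activators showed ratios between -0.18 and 0.24. Cdc7, the kinase that phosphorylates the loaded helicase, had 127 in wild type and 150 in V156D, a log2 ratio of 0.24, and its second probe set gave 0.04. Dbf4, the regulatory subunit of that kinase, had 120 in wild type and 118 in V156D. Cdc45, which joins the active helicase, had 120 in wild type and 140 in V156D, a log2 ratio of 0.22, whereas its second probe set gave -0.11. The GINS subunits Gins2, Gins3 and Gins4 had 0.05, -0.18 and -0.06, and Gins1 lay below the floor at 39.7 in wild type and 41.4 in V156D. Mcm10, which helps to activate the helicase, had 94.0 in wild type and 96.1 in V156D.

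Of the 9 polymerase and primase genes, 6 had ratios above 0, or 66.7%, against 44.8% of all genes. Their median was 0.07. Pole, the catalytic subunit of the leading-strand polymerase, had 87.7 in wild type and 105 in V156D, a log2 ratio of 0.26 by its single probe set. Its accessory subunit gene Pole2 had 329 in wild type and 285 in V156D, a log2 ratio of -0.21. The X-linked gene Pola1, which encodes the catalytic subunit of the polymerase that starts each strand, had 109 in wild type and 131 in V156D, a log2 ratio of 0.26, but 0.03 as the mean with a second probe set below the floor. Pold1, the catalytic subunit of the lagging-strand polymerase, gave 0.07 by its brightest probe set, at 159 and 167, and 0.37 by the other, at 123 and 159. The remaining genes Pola2, Pold3, Prim1, Prim2 and Pold2 had ratios of 0.16, 0.14, 0.07, -0.00 and -0.07.

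The sliding clamp gene Pcna had 3016 in wild type and 2883 in V156D, a log2 ratio of -0.06 by its single probe set. Among the subunits of its loader, Rfc4 had the lowest ratio. It had 187 in wild type and 140 in V156D, 1.33-fold lower, whereas its other probe set had 67.4 and 65.1, a log2 ratio of -0.05. Rfc1, the large loader subunit, gave -0.00, 0.32 and -0.04 by its 3 probe sets, so its mean of 0.09 rested on the second of them. Rfc2, Rfc3 and Rfc5 had 0.17, 0.05 and 0.14. The subunits of the single-strand binding protein were near equal, Rpa1 at 0.04, Rpa2 at -0.04 and Rpa3 at -0.04, although the second probe set of Rpa1 gave 0.20 and that of Rpa2 gave -0.16.

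The 2 genes that finish the lagging strand both had higher signals in V156D, where 44.8% of all genes did. Lig1, the ligase that joins Okazaki fragments, had 200 in wild type and 258 in V156D, 1.29-fold higher by its single probe set. Fen1, the nuclease that trims the fragments, had 472 in wild type and 567 in V156D, a log2 ratio of 0.26 by an _x_at probe set, whereas a second probe set below the floor had 52.7 and 53.1.

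Of the 5 nucleotide supply genes bright enough to count, 3 had ratios above 0, or 60%, against 44.8% of all genes. Tk1, the thymidine kinase of dividing cells, had 115 in wild type and 151 in V156D, 1.31-fold higher by its single probe set. Rrm2, the small subunit of ribonucleotide reductase, had 474 in wild type and 567 in V156D, a log2 ratio of 0.26, and its other probe sets gave 0.01 and 0.10. Rrm1, the large subunit, had 333 in wild type and 383 in V156D, a log2 ratio of 0.20, and 0.08 as the mean over its 3 probe sets. Dut, which removes dUTP, had -0.06, and Ung, which cuts uracil out of DNA, had 189 in wild type and 166 in V156D, a log2 ratio of -0.19. All 4 probe sets tied to Tyms alone, the gene of thymidylate synthase, lay below the floor, the brightest with 15.7 in wild type and 15.2 in V156D.

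Uhrf1 had the highest ratio of the 50 genes by brightest probe set, and the largest SD over probe sets of the 54. It encodes the protein that brings the maintenance DNA methyltransferase to newly copied DNA. The brightest probe set had 155 in wild type and 204 in V156D, 1.32-fold higher, whereas the other, near the floor, had 58.2 and 52.4, a log2 ratio of -0.15. Their mean was 0.12 ± 0.39 (SD over probe sets). Chaf1b, a subunit of the histone chaperone that works behind the fork, lay below the floor with 39.7 in wild type and 49.4 in V156D, and both its probe sets were higher in V156D, at 0.32 and 0.45.

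Both G1/S regulators that reached the floor had higher signals in V156D, where 44.8% of all genes did. E2f1, a transcription factor for replication genes, had 103 in wild type and 126 in V156D, 1.22-fold higher, and the mean of its 3 probe sets was 0.31 ± 0.12 (SD over probe sets). Ccne1, the cyclin that drives entry into S phase, had 166 in wild type and 189 in V156D by an _x_at probe set, a log2 ratio of 0.18. Its other probe set had 90.9 and 96.9, a log2 ratio of 0.09. The related cyclin gene Ccne2 lay just below the floor, at 55.5 in wild type and 53.0 in V156D.

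Probe sets of a gene disagreed by amounts close to the ratios themselves. In 28 genes 2 or more probe sets reached the floor, and in 17 of these the probe sets shared a sign, or 60.7%, against 52.5% of 4878 such genes in all. The ratios of the 2 brightest probe sets differed with an SD of 0.21 over the 28 genes, beside 0.26 over all genes, and the SD of the 50 ratios was 0.20. This spread describes probes, not animals. Another 14 of the 54 genes, among them Tk1, Lig1, Pole, Orc6 and Pcna, had 1 probe set only, so no second reading bears on them.

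Promoter letters are shown for the subunits Mcm5 and Mcm6, in which E2F-type matches overlap, and for the genes with higher signals Uhrf1 and Lig1. They are also shown for Rfc4, the lower clamp loader gene, which had no match. These examples do not show how matches go with ratios. Tk1 and Fen1, at log2 ratios of 0.39 and 0.26, had no match. E2f1, at 0.29, had none in its listed stretch. That stretch reads as coding sequence of the gene, so the upstream promoter of E2f1 was not searched. Pole2, Gins3 and Cdc6, at -0.21, -0.18 and -0.14, had a match. Ratios by brightest probe set were above 0 in 12 of 16 genes with a match and 14 of 27 without. The share over all genes was 44.8%. Sequences are from RefSeq (GRCm38.p6), 250 bases before to 50 after a start site, 5′ to 3′ on the gene's strand, with the matches in capitals. The coordinates are chr8:75109259-75109558 (plus strand) for Mcm5, chr1:128359656-128359955 (minus) for Mcm6, chr17:56304063-56304362 (plus) for Uhrf1, chr7:13278576-13278875 (plus) for Lig1 and chr16:23127681-23127980 (minus) for Rfc4.
Mcm5: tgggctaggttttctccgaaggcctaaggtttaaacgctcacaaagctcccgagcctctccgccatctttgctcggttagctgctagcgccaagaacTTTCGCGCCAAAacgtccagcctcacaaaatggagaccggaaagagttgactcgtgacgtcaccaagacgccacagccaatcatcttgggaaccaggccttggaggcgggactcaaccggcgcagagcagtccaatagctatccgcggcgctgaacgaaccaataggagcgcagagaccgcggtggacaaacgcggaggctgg
Mcm6: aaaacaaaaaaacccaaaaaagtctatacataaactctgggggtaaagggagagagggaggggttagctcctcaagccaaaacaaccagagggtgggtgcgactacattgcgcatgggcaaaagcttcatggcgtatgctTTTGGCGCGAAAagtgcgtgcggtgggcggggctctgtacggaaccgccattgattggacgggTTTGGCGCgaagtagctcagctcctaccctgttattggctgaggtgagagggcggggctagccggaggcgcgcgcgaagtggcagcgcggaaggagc
Uhrf1: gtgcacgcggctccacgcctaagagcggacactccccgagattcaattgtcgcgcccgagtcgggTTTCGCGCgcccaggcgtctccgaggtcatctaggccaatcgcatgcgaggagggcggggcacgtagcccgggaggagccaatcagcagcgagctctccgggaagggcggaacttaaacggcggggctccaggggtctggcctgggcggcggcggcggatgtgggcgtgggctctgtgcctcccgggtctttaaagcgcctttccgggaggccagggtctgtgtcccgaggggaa
Lig1: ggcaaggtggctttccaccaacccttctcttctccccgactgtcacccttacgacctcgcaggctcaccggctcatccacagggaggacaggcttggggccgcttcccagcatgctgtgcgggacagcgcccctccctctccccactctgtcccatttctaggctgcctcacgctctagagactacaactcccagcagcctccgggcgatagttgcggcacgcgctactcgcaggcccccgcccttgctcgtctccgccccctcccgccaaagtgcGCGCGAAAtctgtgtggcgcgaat
Rfc4: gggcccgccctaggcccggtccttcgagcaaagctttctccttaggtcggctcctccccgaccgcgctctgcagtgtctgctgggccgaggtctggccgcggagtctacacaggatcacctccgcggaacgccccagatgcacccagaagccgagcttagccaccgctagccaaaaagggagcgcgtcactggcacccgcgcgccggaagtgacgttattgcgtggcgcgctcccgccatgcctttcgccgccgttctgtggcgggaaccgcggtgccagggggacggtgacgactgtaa
Uhrf1 had another listed promoter and Lig1 had 2 others, none with a match.

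The letters searched were TTTCCCGC, TTTGGCGC, TTTCGCGC and TTTGCCGC for E2F, on both strands. TTTGGCGC and TTTCGCGC can overlap on opposite strands, as in the run of capitals of Mcm5 and the first run of Mcm6, and each promoter was counted once however many matches it held. RefSeq promoters matched 46 of the 55 genes, with 56 promoters. No promoter was listed for Mcm4, Pole, Gmnn, Rfc2, Prim2, Gins1, Gins2, Gins4 and Ccne2. Mcm4, the lowest of the 50 genes at -0.53, is therefore in neither group, with or without a match. A match was present in 16 of the 56, or 28.6%, against 3.82% of 11807 promoters of all genes at or above the floor and 2.26% of all 32851 promoters in the table. The genes with a match were Mcm3, Mcm5, Mcm6, Mcm7, Orc1, Orc3, Cdc6, Cdt1, Gins3, Pola1, Pold1, Pold3, Pole2, Rfc3, Lig1 and Uhrf1. The CHR letters TTTGAA were in 14.3% of the 56 promoters, against 11.8% of promoters of all genes at or above the floor, and CCAAT in 50% against 37.0%, both on either strand. Over all 32851 promoters in the table the shares were 17.9% for TTTGAA and 37.4% for CCAAT.

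The ratios of genes with and without E2F-type letters overlapped widely. The 16 genes with a match, all at or above the floor, had a median log2 ratio of 0.05 and ran from -0.21 (Pole2) to 0.40 (Uhrf1), with 12 above 0. The 27 without a match at or above the floor had a median of 0.03 and ran from -0.41 (Rfc4) to 0.39 (Tk1), with 14 above 0. E2f1, whose upstream promoter was not searched, is counted among these 27. These counts are by brightest probe set and depended on the measure. By the mean over probe sets Mcm3, Mcm6 and Cdt1, with a match, were below 0, and Mcm7, with a match, was above it. Rfc1 and Dut, without a match, were also above 0 by the mean. A match of letters is a description, and binding was not measured here.

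**Figure D3:**
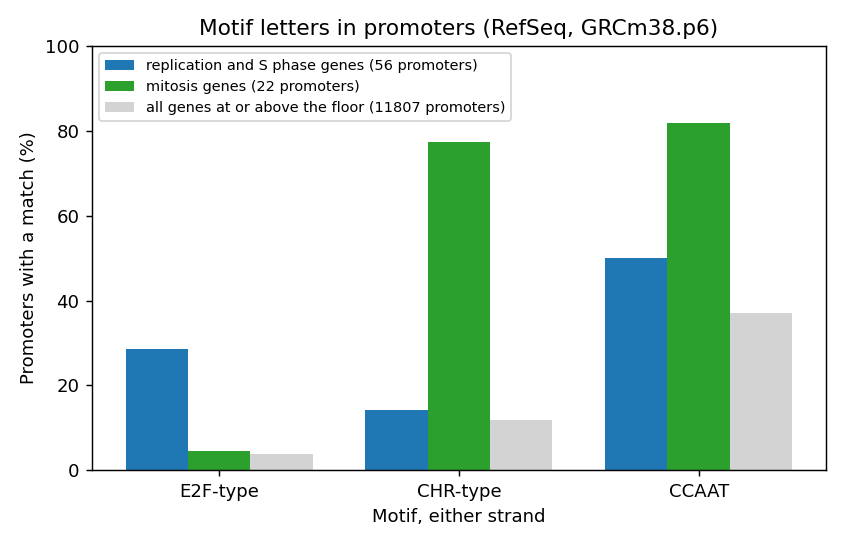
Share of promoters (%, vertical axis) that hold the E2F-type, CHR-type (TTTGAA) or CCAAT letters on either strand (horizontal axis), for replication and S phase genes (blue), mitosis genes (green) and all genes at or above the signal floor (grey). E2F-type letters were in 28.6% of the replication promoters and 4.55% of the mitosis promoters, and CHR-type letters in 14.3% and 77.3%.

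Several of these genes start back to back with another gene, and the signs within pairs depended on the measure. A gene starting within 1000 bases on the opposite strand and pointing away was found for 13 members, 1 each, and in 7 pairs both genes lay at or above the floor. By brightest probe set the ratios had opposite signs in 6 of these 7 and in the last the neighbour was at 0.00, whereas by the mean over probe sets 3 of the 7 shared a sign. Over all 517 such pairs on the array in which both genes reached the floor, 52.8% shared a sign by brightest probe set and 53.8% by the mean. Among all 11 measured pairs of members, the floor set aside, 3 shared a sign by brightest probe set and 6 by the mean. Orc1 had 0.17 and Prpf38a, a splicing factor gene, had 375 in wild type and 314 in V156D, a log2 ratio of -0.25. Rpa1 had 0.04 and its neighbour Smyd4 -0.28. Dbf4 had -0.03 and the carrier gene Slc25a40 0.26, and Mcm7 had -0.07 and Ap4m1, an adaptor subunit gene, 0.15. The other pairs were Cdc45 at 0.22 with Ufd1 at -0.04, Orc3 at 0.01 with Rars2 at -0.07, and Fen1 at 0.26 with Tmem258 at 0.00. None of these 7 neighbours differed 1.5-fold.

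Other genes of the replication and G1/S programme, on lists that hold none of the 55, also lay near 0. Their 62 genes bright enough to count had a median ratio of 0.04, with 37 above 0, 25 below 0 and 0 past 1.5-fold. The share above 0 was 59.7%, against 44.8% of all genes. Among 19 fork and origin genes the median was 0.07, with Timeless, a fork protection gene, highest at 0.41 (101 in wild type and 133 in V156D) and Rif1, which controls replication timing, lowest at -0.24. Among 9 nucleotide supply genes the median was -0.03, from Rrm2b at -0.31 to Samhd1, a dNTP hydrolase gene, at 0.29. As means, Rrm2b had -0.04 over its 4 probe sets and Samhd1 0.14 over its 5. Among 9 chromatin and histone supply genes the median was 0.01, from Rbbp7 at -0.18 to the histone chaperone gene Asf1b at 0.25. The mean of both Rbbp7 probe sets was -0.05.

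Regulators of E2F and of the G1 cyclins had medians of -0.02 and 0.06. Among 10 E2F and RB family genes 5 were above 0, with Rbl1, an RB relative, highest at 0.23 and E2f3 lowest at -0.39 (171 in wild type and 130 in V156D), or -0.17 as the mean of both its probe sets. Among 15 cyclins, CDKs and inhibitors 12 were above 0, or 80%, against 44.8% of all genes. Ccna2, the cyclin of S phase and G2, was highest at 0.29 (232 in wild type and 285 in V156D), and the inhibitor gene Cdkn1b was lowest at -0.07, or 0.06 as the mean of both its probe sets.

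Mitosis genes, which serve a later phase of the same cycle, had small ratios of nearly 1 sign. Of 21 that reached the floor 20 were above 0, or 95.2%, against 44.8% of all genes, and none differed 1.5-fold. By the mean over probe sets 20 were also above 0, against 46.4% of all genes. The median was 0.29 by brightest probe set and 0.20 by the mean. The highest by brightest probe set was Tpx2, a spindle assembly factor, at 0.53 (199 in wild type and 288 in V156D). The mean over its 4 probe sets was 0.28, and by that measure Ttk was highest at 0.46. The lowest by brightest probe set was Cdc20, an activator of the anaphase ubiquitin ligase, at -0.04. The Cdc20 ratio was above 0 after quantile normalization and after the loess correction. By brightest probe set the lower quartile of the mitosis ratios was 0.25 and the upper quartile of the replication ratios 0.18, but by the mean over probe sets both were 0.12. Under 9 alternatives of scaling, offset, floor and probe set choice the median of the replication genes by brightest probe set stayed between 0.02 and 0.08 and that of the mitosis genes between 0.25 and 0.31. By the mean over probe sets the ranges were 0.03 to 0.05 and 0.14 to 0.23. The difference between the lists was not tested. Mitosis values of these arrays were known when the lists were made, so they are no independent support. The fibroblast and endothelial markers given above were higher on the same array as the mitosis genes, and their part in this pattern was not tested.

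**Figure D4:**
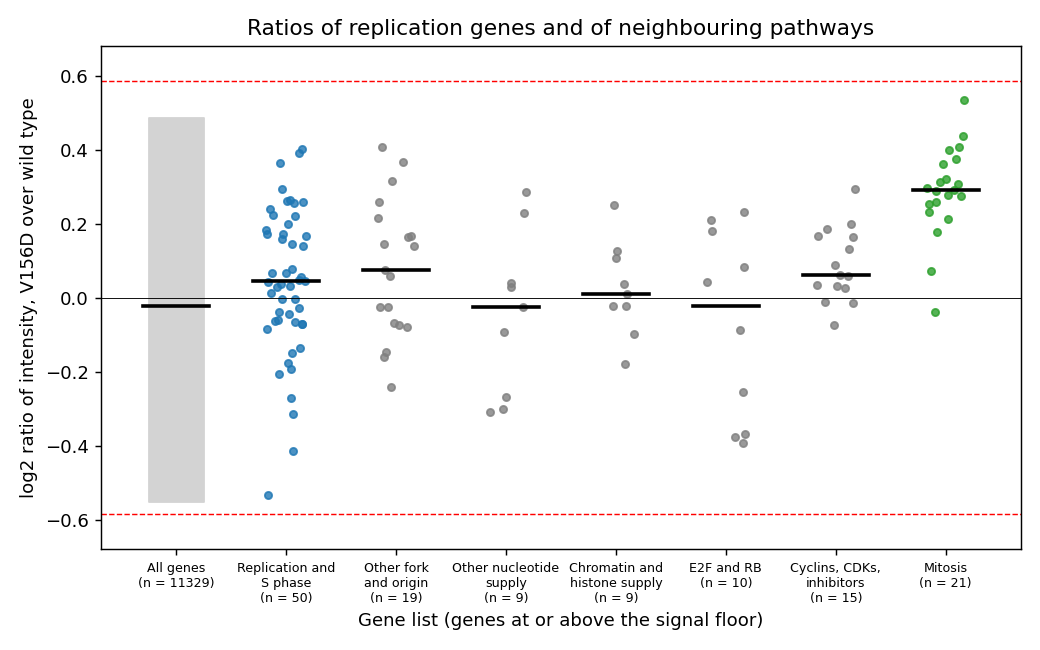
Log2 ratio of intensity (V156D over wild type, vertical axis) of each gene at or above the signal floor, by list (horizontal axis). Points are genes by brightest probe set, black bars list medians, the grey block the central 95% of all 11329 genes, and dashed lines 1.5-fold. The replication genes spread on both sides of 0 around a median of 0.04. Of the 21 mitosis genes 20 lie above 0, against 44.8% of all genes.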

How the data were processed

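The authors deposited a linear intensity for each of 45037 probe sets on both arrays. MAS5 is named in the submitters' processing notes, with no version or settings, and scaling target, background step and detection calls are not stated. The median intensity was 54.3 in wild type and 55.1 in V156D. Gene symbols came from the platform annotation held by GEO, updated by Entrez identifier against RefSeq (GRCm38.p6), which changed 0 symbols. Of all probe sets 34945 had 1 symbol, 932 several and 9160 none, and only the first kind was used. Intensities were taken to log2 without further normalization. A gene's value was that of its brightest probe set by mean log2 over both arrays, or the mean log2 ratio over its probe sets. Genes were counted from an intensity of 54.6 (50th percentile) and at 1.5-fold. There is no test, since each genotype has 1 array.

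Members and lists were chosen with earlier results of these data known. Every member is named. Other genes are named where they are the highest or lowest of a list or a neighbour starting within 1000 bases, besides Col2a1, Ptprc, Xist and Eif2s3y, chosen with their values known. Alternatives were median centring, quantile normalization, loess (span 0.3), an offset of 32, floors at the 40th and 60th percentile, none or on both arrays, other probe set choices and other fold thresholds. Scripts were tested on simulated data. Python 3.11.15, numpy 2.4.6, pandas 2.3.3, statsmodels 0.14.6 and matplotlib 3.10.9 were used.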

Additional observations from a re-analysis of the deposited data

Results flagged for a closer look

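A probe set listed for both Tyms and its pseudogene Tyms-ps, and so not used above, had a signal above the floor on both arrays. Its intensities were 230 for wild type and 254 for V156D, a log2 ratio of 0.14, whereas the probe sets tied to Tyms alone lay below the floor. Which of these transcripts it measured was not tested.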

How the results depend on the processing

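No replication gene reached 1.5-fold by brightest probe set or by the mean under any alternative of scaling, offset, floor or probe set choice, and at 2-fold the brightest probe sets gave 0 either way. At 1.2-fold, a threshold chosen after seeing the data, the brightest probe sets gave 5 higher and 4 lower, and the means gave 3 higher and 2 lower. By brightest probe set the number above 0 ran from 25 of 42 genes, without the _s_at, _x_at and _a_at probe sets, to 34 of 50, after quantile normalization. By the mean it ran from 25 of 42 to 33 of 53. A change in a single gene was counted when it exceeded 0.13, the median SD between probe sets of a gene. Without the _s_at, _x_at and _a_at probe sets, 5 of 44 genes moved by more: Mcm4 to -0.18, Rrm2 to 0.01, Pold1 to 0.37, Rpa1 to 0.20 and Dut to 0.20. Of these 44 genes 42 lay at or above the floor in that setting. The Dut probe set left there lay below it, at 21.9 in wild type and 25.2 in V156D. The signs of Cdt1, Dut, Mcm7, Orc3, Pcna and Rfc1 depended on the alternative. No paired analysis was possible because each group holds 1 array. No replicate could be left out. Signal over background could not be judged without detection calls, and low signals may be compressed.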
